A study of Homo sapiens with 12 samples.

Results

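The genes described here encode alpha-tubulin (TUBA1A, TUBA1B and TUBA1C), beta-tubulin (TUBB, TUBB2A, TUBB2B, TUBB3, TUBB4B and TUBB6) and gamma-tubulin (TUBG1), and were taken by gene symbol from a deposited table of 62700 genes. Each of the 10 symbols matched 1 row, and all 10 genes passed the filter on low counts that left 18049 genes for testing. The libraries hold poly(A) RNA of HCT116 TIM-mAID, a human colorectal carcinoma line with a CRISPR knock-in of a mini auxin-inducible degron (mAID) tag, which the series places on TIMELESS, a protein of the replication fork protection complex. After 40 h, 3 libraries were taken from each of 4 groups: DMSO vehicle, 5-Ph-IAA at 1 µM, ATRi at 1 µM, and 5-Ph-IAA/ATRi with both compounds at 1 µM each. All 4 groups carry the same knock-in, so no untagged cells stand among the controls. 5-Ph-IAA is an auxin analogue that sends degron-tagged proteins to the proteasome, and ATRi stands for ceralasertib, which blocks ATR, a kinase activated at stalled replication forks. Whether the line is a single clone, and which ubiquitin ligase receptor it carries, is not given in the sources used here. The series' design text calls the 3 libraries of a group biological replicates, and the titles number them as sets 1 to 3.

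Alpha- and beta-tubulin form the dimer from which microtubules are built, and gamma-tubulin sits in the ring complexes that start new microtubules. Vertebrate isotypes share most of their sequence and differ chiefly in the acidic tail at the carboxyl end, which projects from the microtubule and carries polyglutamylation and other modifications. Cells also adjust tubulin mRNA to the amount of free dimer: when free dimer accumulates, TTC5 binds the first residues of the nascent chain on the ribosome, and SCAPER and the CCR4-NOT deadenylase then bring about decay of the mRNA. TUBB, TUBB4B, TUBA1B and TUBA1C are the usual isotypes of dividing epithelial cells, whereas TUBB3 is best known as a neuronal isotype and TUBB2A and TUBB2B are prominent in brain.

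The first 12 coding bases are shown because in alpha- and beta-tubulin genes they encode the residues that the autoregulation pathway reads. They were read from GENCODE release 29 transcripts, 5′ to 3′, and capitals mark bases that differ from TUBB at the same position. TUBA1A, TUBA1B and TUBA1C share 1 such stretch, printed once in lower case.
TUBA1B: atgcgtgagtgc
TUBB: atgagggaaatc
TUBB4B: atgagggaaatc
TUBB3: atgagggaGatc
TUBB6: atgagggaGatc
TUBB2A: atgCgCgaGatc
TUBB2B: atgCgTgaGatc
TUBG1: atgCCgAGGGAA
The alpha-tubulin genes agree at all 12 bases. TUBB2A and TUBB2B each differ from TUBB at 3 bases, TUBB3 and TUBB6 at 1, and TUBB4B at 0. TUBG1 differs at 8. By the standard genetic code all the beta genes listed encode the same residues in this stretch, so their base differences are silent there. TUBG1 encodes other residues and is shown for comparison only.

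The last 75 coding bases, stop codon included, are shown for 4 beta-tubulin genes because they encode the tail by which isotypes are told apart. Capitals mark bases that differ from TUBB in a pairwise alignment.
TUBB: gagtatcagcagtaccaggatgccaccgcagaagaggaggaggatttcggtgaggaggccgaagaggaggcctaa
TUBB2A: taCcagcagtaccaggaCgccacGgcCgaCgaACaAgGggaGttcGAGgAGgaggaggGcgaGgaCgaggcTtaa
TUBB2B: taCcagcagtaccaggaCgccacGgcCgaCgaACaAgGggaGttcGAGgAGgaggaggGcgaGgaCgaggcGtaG
TUBB6: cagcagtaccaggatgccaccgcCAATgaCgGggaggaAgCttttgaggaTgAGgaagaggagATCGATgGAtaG
TUBB2A and TUBB2B run in parallel through this stretch, with 19 and 20 bases in capitals, and TUBB6 also has 20. Over the whole coding sequence TUBB2A and TUBB2B were identical at 98.1% of aligned bases, TUBB and TUBB2A at 84.9%, and TUBB and TUBB6 at 81.7%. TUBA1A and TUBA1B were identical at 97.2%.

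Such likeness limits how reads can be divided. Of all stretches of 100 coding bases, 68.0% in TUBB2A and 71.7% in TUBB2B also occur in another gene's transcript, mostly each other's. The share was 45.2% in TUBA1B, 26.4% in TUBA1A, 26.7% in TUBA1C, 18.0% in TUBG1, 10.6% in TUBB, 3.55% in TUBB4B and 0% in TUBB6. In TUBB3 it was 95.6%, nearly all through an annotated readthrough transcript that runs over the same exons. The deposited counts are estimates that divide such reads, so values of TUBA1A, TUBA1B, TUBA1C, TUBB2A, TUBB2B and TUBB3 are uncertain to that extent, and TUBB6 is the member least touched by it. In all, 52 tubulin pseudogene rows held 0.0438% as many counts as the 10 members.

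The members lie on 6 chromosomes (RefSeq gene spans, GRCh38.p14). TUBA1B (chr12:49127782-49131395), TUBA1A (chr12:49184795-49189080) and TUBA1C (chr12:49227926-49274600) are neighbours on chromosome 12. TUBB2A (chr6:3153666-3157544) and TUBB2B (chr6:3224277-3227653) are neighbours on chromosome 6, which also holds TUBB (chr6:30720352-30725422). TUBB3 (chr16:89921925-89936097), TUBB4B (chr9:137241287-137243707), TUBB6 (chr18:12307669-12329826) and TUBG1 (chr17:42609683-42615238) lie apart. The principal GENCODE transcript has 4 exons in each alpha- and beta-tubulin gene and 11 in TUBG1. The gene spans of GENCODE release 29 differ from these, some of them being longer. By those spans TUBB6 overlaps AFG3L2 on the other strand over 15377 bases, TUBG1 overlaps RETREG3 over 948, and TUBA1A and TUBA1C overlap each other over 589, whereas the RefSeq spans of TUBA1A and TUBA1C given above lie apart. The library kit keeps strand, but the strand setting of the counting is not given in the sources used here.

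Library totals ran from 27.7 M to 34.7 M counts, and the 10 members took 0.164% to 0.500% of a library. Transcripts of the mitochondrial genome took 6.63% to 14.9%. The colon epithelial markers EPCAM, CDH1, KRT8, KRT18, KRT19 and CDX2 were present in all 12 libraries, whereas VIL1 and LGR5 stayed under 0.7 counts-per-million (CPM). Of 8 neuronal markers, MAP2 reached 8.87 to 19.2 CPM and the other 7 stayed at or below 1.66 CPM. The summed neuronal markers were 15.1 to 20.7 CPM with DMSO and 10.7 to 11.3 with 5-Ph-IAA/ATRi. The summed epithelial markers were 4294 to 6384 CPM with DMSO and 9993 to 11437 with 5-Ph-IAA/ATRi. Of 6 markers of other cell types, COL1A1 stood at 35.1 to 105.8 CPM and ACTA2 at 6.37 to 31.1 CPM. For comparison, CDX2 stood at 12.6 to 17.0 CPM and CDH1 at 63.2 to 105.7 CPM. PTPRC, CD3E, PECAM1 and COL1A2 stayed at or below 0.254 CPM. The sum of these other markers was 41.5 to 115.6 CPM with DMSO and 68.9 to 97.5 with 5-Ph-IAA/ATRi. The degron acts on TIMELESS protein, and the RNA level of TIMELESS is therefore no test of the sample labels.

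Levels within a gene are given as CPM after TMM scaling, in sets 1, 2 and 3. Differences are log2 fold changes ± standard error from edgeR's quasi-likelihood test over all 12 libraries, with Benjamini-Hochberg adjusted p over 18049 genes and a threshold of 0.05. The cells were sequenced in bulk, so fewer cells of a kind and less RNA per cell cannot be told apart.

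With 5-Ph-IAA/ATRi, TUBB2A and TUBB6 rose against DMSO, and no other member passed the threshold in either direction. Over all genes tested, 13.1% passed in this comparison, so 2 of 10 members is near the background. The large isotypes TUBA1B and TUBB had negative log2 fold changes of about the same size as those rises, but neither passed. Their libraries spread widely outside the combination group. The coefficient of variation of TUBA1B was 59.7% with DMSO, 45.9% with 5-Ph-IAA and 34.2% with ATRi, and that of TUBB 59.0%, 47.4% and 29.8%.

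TUBB2A, a beta isotype prominent in neurons and present at a low level in many other cells, stood at 37.9, 43.0 and 51.6 CPM with DMSO. It stood at 52.5, 45.6 and 59.5 CPM with 5-Ph-IAA and at 55.6, 46.9 and 65.4 CPM with ATRi. With 5-Ph-IAA/ATRi it stood at 79.4, 86.2 and 89.1 CPM. Every library with both compounds was above all 9 others, while the DMSO and single-compound groups overlapped. Of 18049 genes tested, 2956 had all combination libraries above DMSO, 2452 above 5-Ph-IAA and 2336 above ATRi. How many had them above all 9 was not counted. The log2 fold change of the combination was 0.94 ± 0.16 against DMSO (edgeR adjusted p = 0.00308; 1.92-fold), 0.69 ± 0.16 against 5-Ph-IAA (adjusted p = 0.0198) and 0.60 ± 0.16 against ATRi (adjusted p = 0.0639). TUBB2A thus rose against DMSO and against 5-Ph-IAA, and the difference from ATRi did not pass in this fit. With the set number as a replicate block that difference was 0.61 and passed (edgeR adjusted p = 0.00703), as it did under 4 other settings. Over all genes tested, 1980 of 18049 passed against ATRi with the block, and 634 without it. The rise of TUBB2A over DMSO held in each refit tried. Its rise over 5-Ph-IAA was lost without 5-Ph-IAA 1, 5-Ph-IAA 2 or any 1 of the 3 combination libraries (log2 0.60 to 0.74, edgeR adjusted p from 0.0511 to 0.0791). It was also lost in 8 libraries that leave out the one richest in mitochondrial transcripts in every group (log2 0.74, edgeR adjusted p = 0.113). Over all genes, 777 to 1236 passed against 5-Ph-IAA in those left-out refits, 805 in the 8 libraries and 1699 in the main fit.

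TUBB6, a divergent beta isotype found in many tissues at a low level, stood at 92.1, 92.5 and 113 CPM with DMSO. It stood at 139, 96.2 and 129.5 CPM with 5-Ph-IAA and at 145, 118 and 139.8 CPM with ATRi. With both compounds it stood at 161, 197 and 151 CPM. The ATRi libraries were all above the DMSO libraries, as in 854 of 18049 genes tested. The combination libraries were again the 3 highest of the 12. The log2 fold change was 0.78 ± 0.17 against DMSO (edgeR adjusted p = 0.0109; 1.71-fold), 0.48 ± 0.17 against 5-Ph-IAA (adjusted p = 0.101) and 0.34 ± 0.17 against ATRi (adjusted p = 0.346). TUBB6 thus passed against DMSO and did not pass against either single compound. The rise was lost without DMSO 1 (0.72, adjusted p = 0.0559) or without 5-Ph-IAA/ATRi 2 (0.66, adjusted p = 0.0517).

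**Figure D1:**
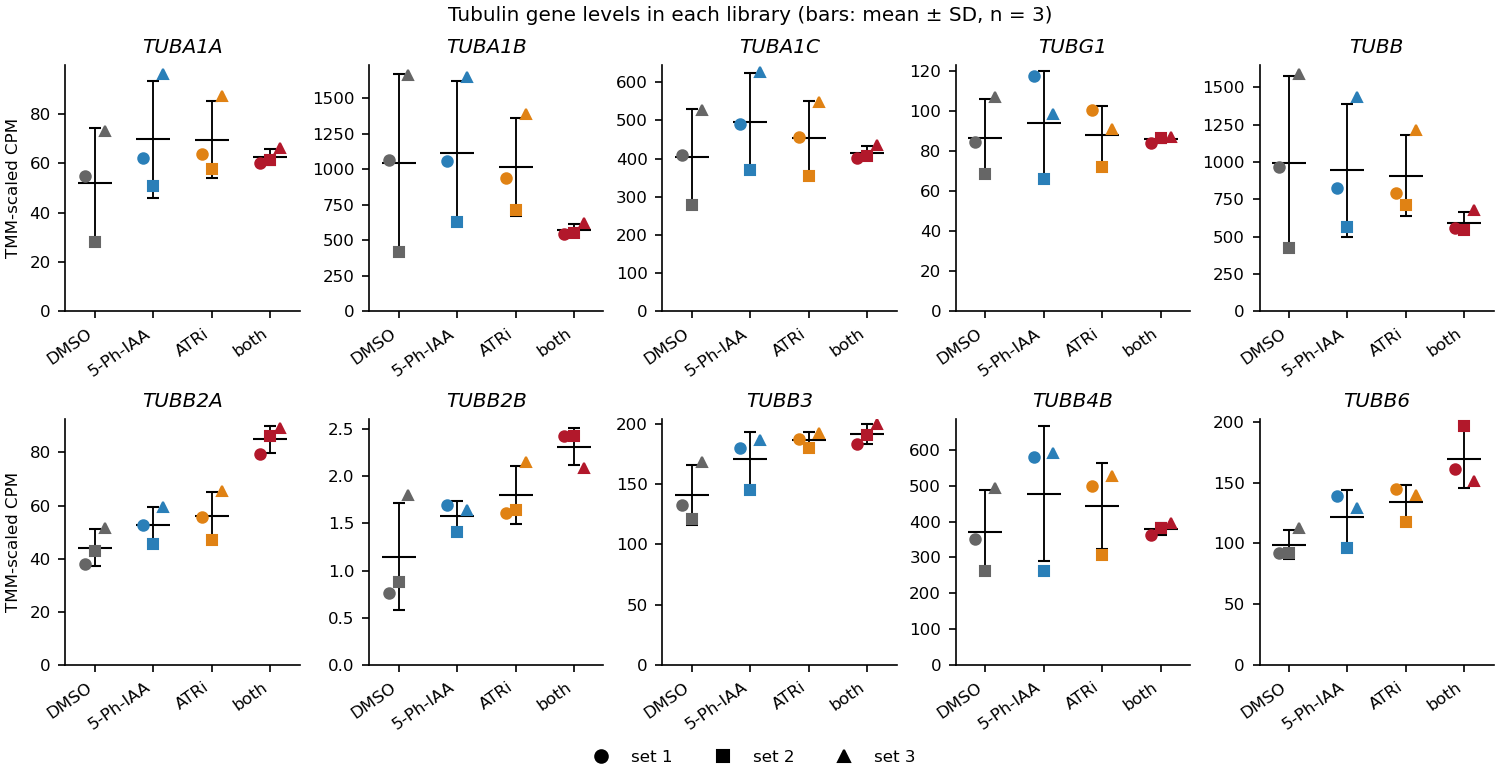
Level of each tubulin gene in TMM-scaled CPM (vertical axes, starting at 0) in the 4 groups (horizontal axes; "both" is 5-Ph-IAA/ATRi); points are libraries, with shapes for sets 1 to 3, and bars are mean ± SD of 3. TUBB2A and TUBB6 have their 3 combination libraries above all others, and TUBA1B and TUBB have wide DMSO groups and narrow combination groups.

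TUBB3, the isotype used as a marker of neurons, stood at 132, 121 and 168 CPM with DMSO and at 183, 191 and 199.5 CPM with both compounds. The groups did not overlap, yet the log2 fold change of 0.44 ± 0.14 missed the threshold (edgeR adjusted p = 0.0642). With the set number as a replicate block it was 0.46 and passed (edgeR adjusted p = 0.0122). In that fit 4569 of 18049 genes passed against DMSO, and 2370 without the block. With ATRi alone TUBB3 stood at 187, 179.6 and 192 CPM, all above DMSO, with a log2 fold change of 0.41 ± 0.14 (edgeR adjusted p = 0.80). Over all genes tested, 854 of 18049 had all ATRi libraries above DMSO. Adding 5-Ph-IAA to ATRi gave a log2 fold change of 0.04 ± 0.14 (95% interval from -0.28 to 0.35), and adding ATRi to 5-Ph-IAA gave 0.17 ± 0.14.

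TUBB2B, a beta isotype of the developing brain, was at the bottom of the measured range. Its estimated counts ran from 24.7 to 76.4 per library, where counting error is large. It stood at 0.765, 0.879 and 1.80 CPM with DMSO and at 2.43, 2.42 and 2.09 CPM with both compounds. The log2 fold change of 1.01 ± 0.31 missed the threshold narrowly (edgeR adjusted p = 0.0515). With the replicate block it was 1.06 and passed (edgeR adjusted p = 0.0185), in a fit where 4569 of 18049 genes passed. How much of this level stems from reads of the near-identical TUBB2A was not tested. Counted together, 4 of 10 members (TUBB2A, TUBB2B, TUBB3 and TUBB6) had all combination libraries above all DMSO libraries, against 16.4% of all genes tested. None had all combination libraries below, against 15.9% of all genes.

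TUBA1B, the most used alpha isotype of dividing cells, stood at 1062, 414 and 1662 CPM with DMSO. It stood at 1058, 631 and 1649 CPM with 5-Ph-IAA and at 941, 710.3 and 1391 CPM with ATRi. With both compounds it stood at 541, 549.6 and 622 CPM. The combination libraries lay below every 5-Ph-IAA and ATRi library but above DMSO 2, the lowest library of all. Of 18049 genes tested, 2526 had all combination libraries below 5-Ph-IAA and 2523 below ATRi. The log2 fold change was -0.87 ± 0.45 against DMSO (edgeR adjusted p = 0.248), -0.96 ± 0.46 against 5-Ph-IAA (adjusted p = 0.238) and -0.83 ± 0.45 against ATRi (adjusted p = 0.413). Without DMSO 2 the first value became -1.26 and passed (adjusted p = 0.0480), and in the other refits of this value it did not pass.

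TUBB, the main beta isotype of dividing cells, followed the same course. It stood at 963, 419.8 and 1589 CPM with DMSO, at 825, 566 and 1436 CPM with 5-Ph-IAA and at 795, 710.1 and 1215 CPM with ATRi. With both compounds it stood at 559.9, 544 and 675 CPM, below every ATRi library and again above DMSO 2. As given above, 2523 of 18049 genes had all combination libraries below ATRi. The log2 fold change was -0.74 ± 0.44 against DMSO (edgeR adjusted p = 0.314; 95% interval from -1.70 to 0.22), -0.67 ± 0.44 against 5-Ph-IAA and -0.61 ± 0.44 against ATRi. Of all pairs of members, TUBA1B and TUBB had the most similar course over the 12 libraries, with a root-mean-square difference of 0.134 between their centred log2 CPM.

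The remaining members moved little on average. TUBA1C, a further alpha isotype of dividing cells, stood at 411, 278 and 526 CPM with DMSO and at 401, 407 and 436 CPM with both compounds, a log2 fold change of 0.03 ± 0.25. TUBB4B, a widely expressed beta isotype that also builds cilia, stood at 352, 263 and 495 CPM with DMSO and at 362, 383 and 396 CPM with both compounds, a log2 fold change of 0.04 ± 0.32. TUBA1A, the chief alpha isotype of neurons, stood at 54.7, 28.2 and 72.9 CPM with DMSO and at 60.1, 61.3 and 66.4 CPM with both compounds, a log2 fold change of 0.27 ± 0.32. In each of these genes the combination libraries lay inside the DMSO range. TUBG1, the gamma-tubulin of microtubule nucleation, stood at 84.4, 68.3 and 107 CPM with DMSO and at 83.7, 86.6 and 87.0 CPM with both compounds. Its log2 fold change was -0.01 ± 0.22, with a 95% interval from -0.49 to 0.47, so changes within those bounds were not excluded here. The signs of TUBA1A, TUBA1C, TUBB4B and TUBG1 turned in some refits.

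Neither compound alone changed a member by the test. Against DMSO, 5-Ph-IAA gave log2 fold changes from -0.07 (TUBB) to 0.45 (TUBB2B), with 0 of 10 members past the threshold and 0 at an unadjusted p under 0.05 in edgeR; DESeq2 also called 0. Over all genes, 0.00554% passed the threshold, and 239 of 18049 had an unadjusted p under 0.05 in edgeR. TUBB2A had 0.25 ± 0.16, TUBB6 0.30 ± 0.17 and TUBB3 0.28 ± 0.14. ATRi gave log2 fold changes from -0.13 (TUBB) to 0.64 (TUBB2B), again with 0 of 10 past the threshold in edgeR and in DESeq2, and with 2 members (TUBB3 and TUBB6) at an unadjusted p under 0.05. Over all genes, 0.0665% passed the threshold, and 877 of 18049 had an unadjusted p under 0.05 in edgeR. TUBB6 had 0.44 ± 0.17 (edgeR adjusted p = 0.890) and TUBB2A 0.34 ± 0.16 with ATRi. These comparisons and that of the combination share the DMSO libraries.

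Between treated groups, 1 of 10 members (TUBB2A) passed when ATRi was added to 5-Ph-IAA, against 9.41% of all genes. None passed when 5-Ph-IAA was added to ATRi, against 3.51% of all genes. There 1 member, TUBB2A, had an unadjusted p under 0.05 in edgeR, as did 2982 of 18049 genes tested. DESeq2 called TUBB2A, and 1350 genes in all. The interaction asks whether the log2 change with both compounds differs from the sum of the single changes. It passed for 0 of 10 members, against 0.0776% of all genes, and DESeq2 called 0 members. At an unadjusted p under 0.05 in edgeR it passed for 0 members, against 1317 of 18049 genes tested. Its log2 value was 0.35 ± 0.22 for TUBB2A (edgeR adjusted p = 0.893), 0.04 ± 0.23 for TUBB6 and -0.92 ± 0.64 for TUBA1B. A departure from additivity was thus not detected in a tubulin gene, and at these errors a moderate one could have been missed.

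**Figure D2:**
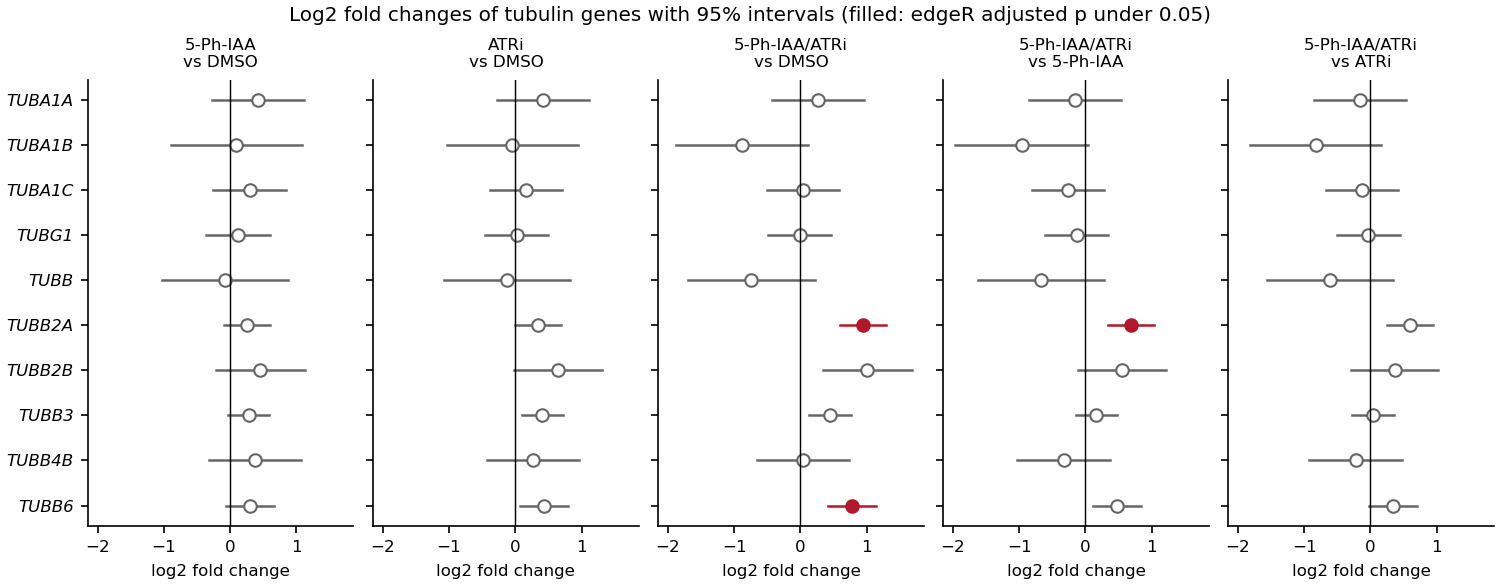
Log2 fold change of each tubulin gene (horizontal axes, with 95% intervals) in the 5 pairwise comparisons; filled red points passed an edgeR adjusted p of 0.05. TUBB2A passed in 2 comparisons and TUBB6 in 1, and the intervals of TUBA1B and TUBB are the widest.

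How far replicates spread was itself different between groups, as a description. The coefficient of variation of the members' CPM ran from 11.9% (TUBB6) to 59.7% (TUBA1B) with DMSO and from 2.08% (TUBG1) to 14.2% (TUBB6) with both compounds. It was smallest in the combination group for 8 of 10 members and largest in the DMSO group for 6. Of 18016 tested genes with a value in every group, 49.98% had the smallest in the combination group and 35.5% the largest in the DMSO group. Over all genes, replicate libraries also lay closer together in the combination group (chi-square per gene from 16.4 to 42.7) than in the DMSO group (44.7 to 240.9). The highest of the 3 DMSO libraries had 4.02 times the TUBA1B level of the lowest, and in the combination group that ratio was 1.15.

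The spread within groups was set beside the mitochondrial share of the libraries. In 4 of 4 groups, the library with the lowest share, set 3 each time, had the highest level of TUBA1A, TUBA1B, TUBA1C, TUBB, TUBB2A, TUBB3 and TUBB4B. For TUBB6 this was so in 1 group. Over all genes tested, the set 3 libraries of different groups also deviated together from their group means (Pearson's r from 0.50 to 0.76). How many of all genes have this order was not counted, so it is not shown to be particular to tubulin genes. At the other end the order was less regular: the library with the highest share had the lowest level in 2 of 4 groups for TUBA1A, TUBA1B, TUBA1C, TUBB3, TUBB4B and TUBG1, in 1 for TUBB, TUBB2A and TUBB2B, and in 0 for TUBB6. Within groups, the log2 level had a Pearson's r with the share of -0.84 for TUBA1A (permutation p = 0.0247), -0.81 for TUBB (p = 0.0316) and -0.76 for TUBA1B (p = 0.0633) over 12 libraries, against -0.43 for TUBB2A and -0.07 for TUBB6. The rank correlation was -0.64 for TUBA1A (permutation p = 0.108), -0.77 for TUBB (p = 0.0625) and -0.82 for TUBA1B (p = 0.0324). After Benjamini-Hochberg adjustment over the 10 members none passed, the smallest adjusted value being 0.158 for Pearson's r. Without DMSO 3 and 5-Ph-IAA 3, the libraries farthest from the median share, r was -0.74 for TUBA1A, -0.69 for TUBB and -0.60 for TUBA1B. The mitochondrial share was 7.85%, 14.9% and 6.63% in the DMSO libraries and 13.9%, 12.03% and 10.7% in the combination libraries. With the share as a covariate 5 members passed against DMSO (TUBA1A, TUBB2A, TUBB2B, TUBB3 and TUBB6), but so did 35.7% of all genes; in the 8 libraries named above TUBB2A passed and TUBB6 did not (0.77, adjusted p = 0.0631). What the share stands for in these cells was not tested.

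**Figure D3:**
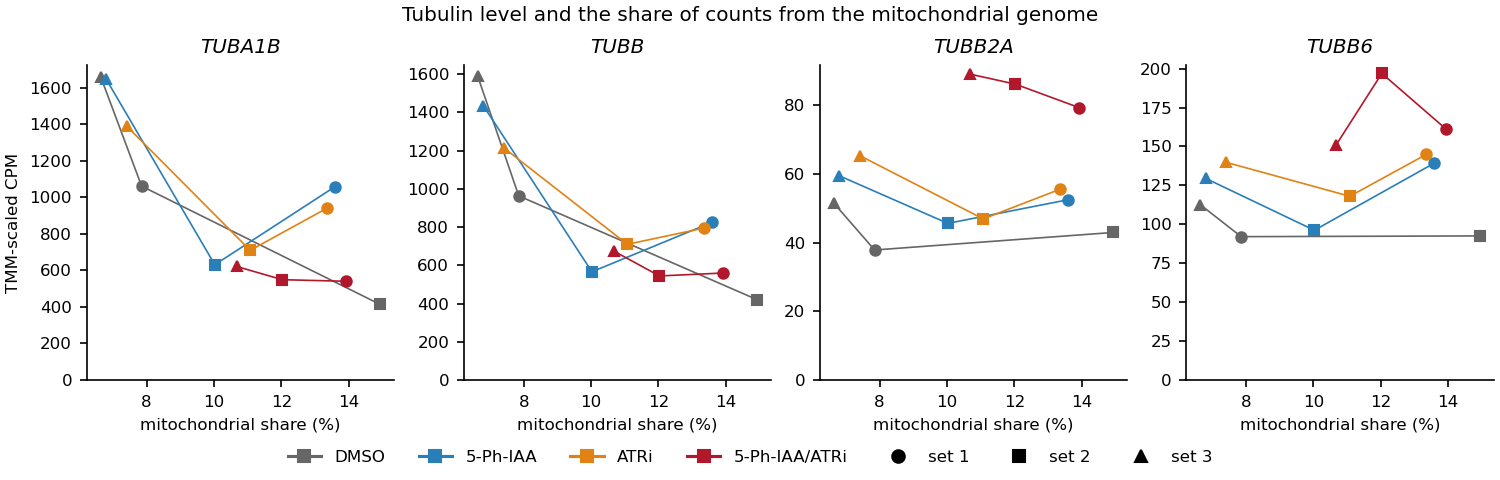
Level in TMM-scaled CPM (vertical axes, starting at 0) against the percent of counts from the mitochondrial genome (horizontal axes) for 4 tubulin genes; points are libraries with shapes for sets 1 to 3, and lines join the libraries of a group. TUBA1B and TUBB are highest in the library with the lowest share in each group. For TUBB2A and TUBB6 the combination libraries lie above all others, and they cover shares from 10.7% to 13.9% only.

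To compare genes with each other, counts were divided by the length of the longest annotated transcript and scaled to the same sum in every library (transcripts-per-million, TPM). On this scale the DMSO group was led by TUBB (859 ± 582 TPM, SD, n = 3), TUBA1B (824 ± 560), TUBB4B (446 ± 194) and TUBA1C (332 ± 140.4). TUBB3 (172 ± 52.0), TUBG1 (131 ± 45.6), TUBB6 (110.3 ± 26.5), TUBA1A (67.4 ± 36.0) and TUBB2A (66.5 ± 17.0) followed, and TUBB2B was last (1.40 ± 0.840). Only TUBB2B stood clear of its neighbour in this order: for the other 8 of 9 neighbouring pairs the ranges over the DMSO libraries overlapped. The longest TUBA1B transcript retains an intron, and by the length of the principal transcript its level was 1618 ± 1099 TPM and it came first. In the combination group the order was TUBB (451 ± 80.1 TPM), TUBB4B (411 ± 37.8), TUBA1B (393 ± 52.6; 772 ± 103 by the principal transcript), TUBA1C (304 ± 30.2), TUBB3 (213 ± 19.9), TUBB6 (172 ± 17.3), TUBB2A (117 ± 12.1), TUBG1 (117 ± 7.91), TUBA1A (71.9 ± 7.77) and TUBB2B (2.51 ± 0.0872). Here 6 of 9 neighbouring pairs did not overlap, and TUBB2A stood level with TUBG1 and above TUBA1A. The order depended on the length. By principal transcripts the combination group began with TUBA1B, TUBB4B (511 ± 46.9 TPM) and TUBB (490 ± 87.0). By the mean length of a gene's transcripts it began with TUBA1B (565 ± 62.4 TPM), TUBA1C (446 ± 34.1) and TUBB (269 ± 41.7). The DMSO group by mean length began with TUBA1B (1118 ± 724 TPM), TUBB (484 ± 312) and TUBA1C (463 ± 175).

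The make-up of the beta-tubulin RNA of the members is described by each gene's share of the summed TPM of the 6 beta members, with no test. Other beta genes are not in this sum. Of these, TUBB4A had a mean of 30.0 CPM with DMSO and 42.9 CPM with both compounds. TUBB took 52.0%, 35.7% and 57.0% with DMSO and 32.7%, 30.3% and 35.5% with both compounds. TUBB2A took 3.72%, 6.66% and 3.37% with DMSO and 8.45%, 8.74% and 8.54% with both compounds. TUBB6 took 6.67%, 10.6% and 5.42% with DMSO and 12.7%, 14.7% and 10.7% with both compounds. The share of TUBB was lower, and those of TUBB2A, TUBB2B and TUBB6 higher, in every combination library than in any DMSO library, under each of the 3 transcript lengths tried. TUBB3 had a mean share of 11.5% ± 3.22 with DMSO and 15.6% ± 0.160 with both compounds (SD, n = 3). Its groups stood apart by 2 of the 3 lengths and overlapped by mean transcript length. TUBB4B had 28.1% ± 3.398 and 30.1% ± 0.368, and its groups overlapped by all 3 lengths. By mean transcript length the TUBB4B means were 24.0% with DMSO and 23.6% with both compounds. DMSO 2, the library with the highest mitochondrial share, lay closest to the combination group in the shares of TUBB, TUBB2A and TUBB6.

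Among the alpha members TUBA1B took 66.8%, 54.6% and 70.9% of their summed TPM with DMSO and 50.6%, 50.6% and 51.9% with both compounds. TUBA4A, with a mean of 29.1 CPM with DMSO and 46.6 CPM with both compounds, is not in this sum. The mean share of TUBA1C was 30.2% ± 7.97 with DMSO and 39.6% ± 0.687 with both compounds, and its groups overlapped by this length. That of TUBA1A was 5.72% ± 0.508 with DMSO and 9.36% ± 0.0887 with both compounds. The TUBA1A share was higher in every combination library than in any DMSO library under each of the 3 lengths. By principal transcript lengths the mean TUBA1B share was 77.6% with DMSO and 67.2% with both compounds, and that of TUBA1C 18.9% and 26.5%. The summed alpha level was 1250 TPM, 474 TPM and 1946 TPM with DMSO and 719 TPM, 715 TPM and 874 TPM with both compounds. The ratio of the beta sum to the alpha sum was 1.28, 1.71 and 1.31 with DMSO and 1.76, 1.82 and 1.75 with both compounds. It was higher in every combination library than in any DMSO library under each of the 3 lengths, though its size depends on the length: by principal transcripts the means were 1.01 ± 0.225 and 1.34 ± 0.0332.

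**Figure D4:**
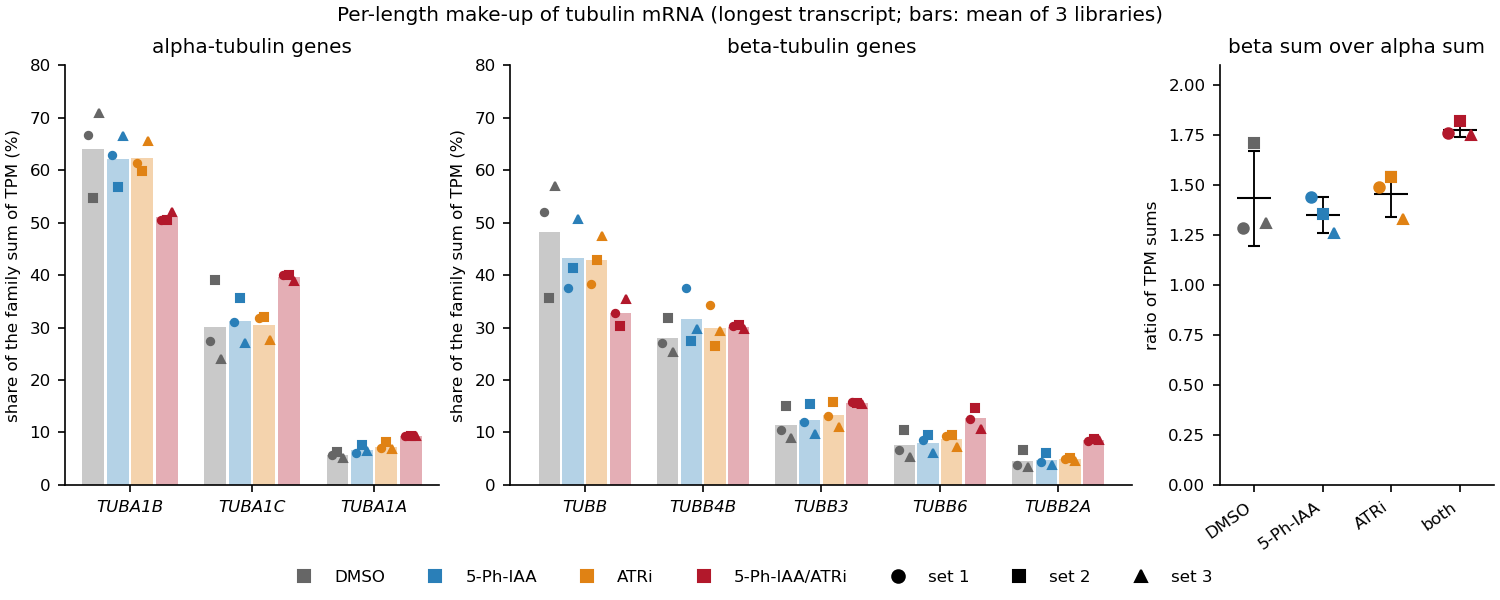
Share of each alpha and beta member in the summed TPM of the alpha or beta members, in percent (left and middle), by group. The right panel shows the ratio of the beta sum to the alpha sum, with bars for mean ± SD. Points are libraries with shapes for sets 1 to 3. In the combination group TUBB and TUBA1B take smaller shares, and TUBA1A, TUBB2A, TUBB3 and TUBB6 larger ones, than in any DMSO library. TUBB2B, at most 0.204% throughout, is not drawn.

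The genes whose course over the 12 libraries was most like that of a member were found by the smallest root-mean-square difference in centred log2 CPM. For TUBB they were SKP2, CBX2 and MCM6 (0.104, 0.132 and 0.149), and for TUBA1B they were LIPE, TYMS and SKP2 (0.154, 0.163 and 0.173). For TUBB2A they were CCDC86, B3GNT7 and FRMD8 (0.112, 0.112 and 0.126), and for TUBB6 they were MRPL36, USP2 and NFKBIE (0.109, 0.115 and 0.116). For TUBB3 they were RPS6KA1, YARS2 and TBL3, for TUBB4B PNPLA5, CORO1A and CACYBP, for TUBA1C KLHL25, HMGB3 and TCP1, and for TUBA1A FKBP4, RBM14 and HMGCS1. For TUBG1 they were STOX2, CENPX and HNRNPAB, and for the low TUBB2B they were FRMD3, MEGF11 and SEMA3F. Among the members themselves TUBB2A was nearest to TUBB6 (0.171) and farthest from TUBA1B (0.803). SKP2 was the only gene among the 3 nearest of more than 1 member.

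The bases before the start of TUBB2A are shown because this member rose most clearly. They are 150 bases before the annotated start, read from RefSeq (GRCh38.p14, chr6:3157545-3157694, minus strand), 5′ to 3′. Capitals mark TGACG, the core of the cAMP response element, on either strand.
TUBB2A: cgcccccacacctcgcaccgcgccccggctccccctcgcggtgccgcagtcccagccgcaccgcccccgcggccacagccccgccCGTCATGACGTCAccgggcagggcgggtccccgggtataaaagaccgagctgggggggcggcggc
The stretch holds the full 8-base element TGACGTCA, directly preceded by a further core. In windows from 250 bases before to 50 bases after the RefSeq start, that element occurs in 1.85% of 35116 promoters and in 1 of 10 members, TUBB2A. The element was looked for after these letters had been seen. The core alone occurs in 24.6% of promoters and in 4 members, TUBB, TUBB2A, TUBB2B and TUBB4B. The CCAAT box (CCAAT on either strand), common before genes of the cell division cycle, occurs in 34.6% of promoters and in 8 of 10 members, all but TUBA1B and TUBB2A. The cell cycle homology region (TTTGAA or TTTAAA on either strand) occurs in 24.0% of promoters and in TUBA1C and TUBB4B. These matches describe letters and not factor binding.

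Genes that fold, nucleate, modify or regulate tubulin are given for 5-Ph-IAA/ATRi against DMSO, where of all genes tested 1126 were higher and 1244 lower with a median log2 fold change of -0.02. Of 8 further tubulin genes tested, TUBE1, the epsilon-tubulin of centrioles, fell (log2 -1.13 ± 0.26, edgeR adjusted p = 0.0157) from 54.4, 68.1 and 44.5 CPM to 26.1, 24.8 and 25.7 CPM, and 7 did not pass. TUBA4A, an alpha isotype prominent in platelets and brain, had 0.68 ± 0.32, TUBB4A, a beta isotype of brain, 0.52 ± 0.25, and TUBD1, the delta-tubulin, -0.21 ± 0.23. The median of the 8 was 0.13, and in the fit of 8 libraries none passed, against 9.01% of all genes. With the mitochondrial share as a covariate 1 was lower and 1 higher, where 35.7% of all genes passed.

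Among 21 genes of tubulin folding, which cover the chaperonin, prefoldin and the tubulin cofactors, 1 was lower and none higher, with a median of 0.04. The lower gene was ARL2, a small GTPase that works with the tubulin cofactors (log2 -0.61 ± 0.14, edgeR adjusted p = 0.0156), and in 8 libraries no gene of the list passed. With the mitochondrial share as a covariate 5 were lower and 4 higher, in a fit where 35.7% of all genes passed. TBCD had -0.74 ± 0.26, TBCC 0.26 ± 0.14 and TBCA -0.35 ± 0.23, each short of the threshold. Of 12 genes of tubulin mRNA autoregulation, 2 were lower and none higher, with a median of -0.26. SCAPER, which links TTC5 to the deadenylase, fell from 10.5, 10.1 and 12.2 CPM to 6.66, 7.23 and 6.82 CPM (log2 -0.66 ± 0.13, edgeR adjusted p = 0.0061). CNOT2, a scaffold subunit of the CCR4-NOT complex, fell by 0.40 ± 0.11 on the log2 scale (adjusted p = 0.0415). CNOT9 had -0.49 ± 0.16 and CNOT10 -0.27 ± 0.13, and neither passed. In 8 libraries 1 gene of this list was lower, where 9.01% of all genes passed. With the mitochondrial share as a covariate 4 were lower and 3 higher, where 35.7% of all genes passed.

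Of 18 genes of the gamma-tubulin ring and augmin complexes, which start microtubules at the centrosome and on existing microtubules, 7 were lower and none higher, with a median of -0.61. HAUS1, an augmin subunit, fell from 34.7, 40.4 and 35.8 CPM to 18.5, 19.0 and 15.4 CPM (log2 -1.07 ± 0.18, edgeR adjusted p = 0.00285). HAUS4, another augmin subunit, had -1.26 ± 0.25, NEDD1, which brings the ring complex to the spindle, -1.21 ± 0.24, and MZT1, a small ring subunit, -0.90 ± 0.19, and each passed. TUBG1, the core of these complexes, stayed within its DMSO range, as given above. With the 8 libraries 7 were lower and none higher, and with the covariate 10 were lower and 1 higher. Over all genes, 9.01% passed in the 8 libraries and 35.7% with the covariate.

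Of 19 genes that modify the tubulin tail or a lysine of alpha-tubulin, 7 were lower and 1 higher, with a median of -0.57. TTLL7, a glutamylase of beta-tubulin tails, fell from 33.4, 30.95 and 30.5 CPM to 20.3, 18.4 and 19.6 CPM (log2 -0.70 ± 0.12, edgeR adjusted p = 0.00313). SVBP (-0.76 ± 0.14) and VASH1 (-0.61 ± 0.14), the subunits of a carboxypeptidase that removes the last tyrosine of alpha-tubulin, fell too. SIRT2, a tubulin deacetylase, rose (0.63 ± 0.14, adjusted p = 0.0146). In 8 libraries 4 of these genes were lower and 1 higher, where 9.01% of all genes passed. With the covariate 11 were lower and 3 higher, where 35.7% of all genes passed.

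Of 19 genes of microtubule dynamics and severing, 5 were lower and none higher, with a median of -0.25. The same counts were found in 8 libraries, where 9.01% of all genes passed. With the mitochondrial share as a covariate 6 were lower and 3 higher (median -0.07), and 35.7% of all genes passed in that fit. STMN1, which binds free tubulin dimers and favours disassembly, fell from 429, 344 and 407 CPM to 121, 135 and 109.6 CPM (log2 -1.69 ± 0.17, edgeR adjusted p = 0.000171). KIF18A (-2.10 ± 0.27) and KIF2C (-2.43 ± 0.32), kinesins that shorten microtubules in mitosis, and FIGNL1 (-1.26 ± 0.25), a severing ATPase family member, fell too. The members and these lists were all chosen with earlier results of these libraries known, so the counts describe the genes and are no independent support.

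**Figure D5:**
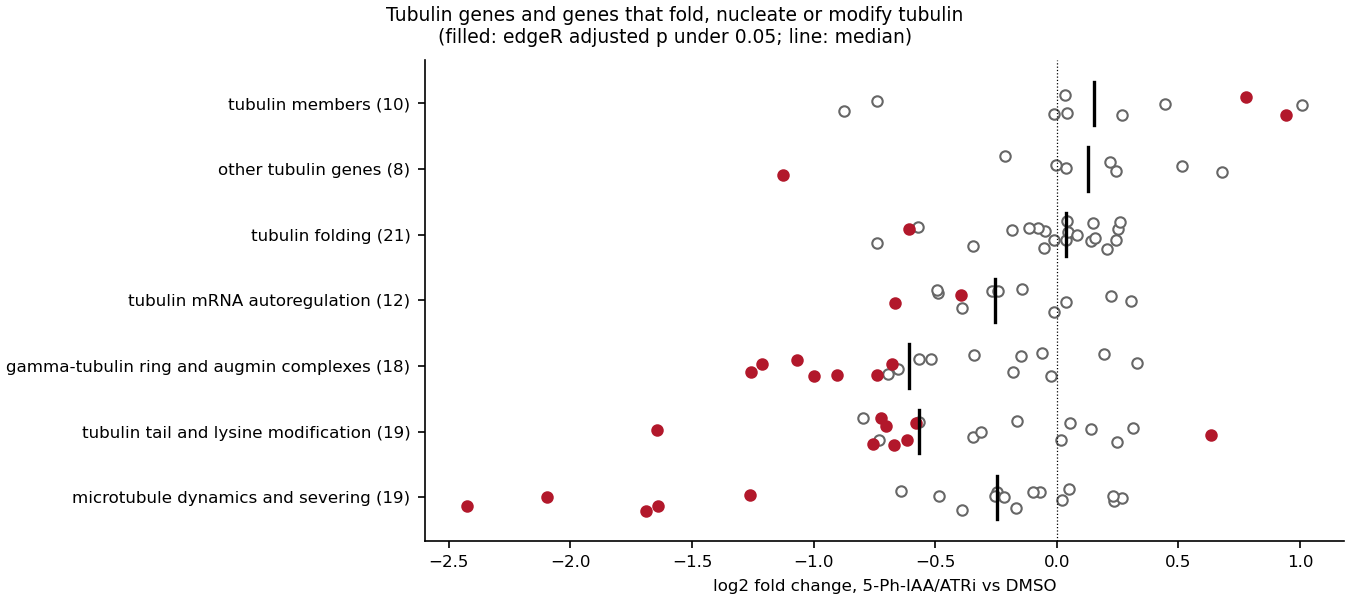
Log2 fold change of 5-Ph-IAA/ATRi against DMSO (horizontal axis) for the tubulin genes and 6 lists of related genes (rows, number tested in parentheses); filled red points passed an edgeR adjusted p of 0.05 and vertical lines are list medians. The tubulin genes spread to both sides of 0, with TUBB2A and TUBB6 filled on the right, and the filled genes of the lower rows lie on the left except for SIRT2.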

How the data were processed

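The authors deposited estimated counts per gene made with Salmon, per the submitters' processing notes, which list Salmon 1.10.1, STAR 2.7.9a, cutadapt 3.4, FastQC 0.12.1, SAMtools 1.17, Trim Galore 0.6.7 and the build GRCh38.p14. The sources used here do not give the annotation, strand setting or read filters. Of the estimated counts 13.6% were not whole, and all were rounded for tests. Groups and set numbers come from the titles. filterByExpr (minimum count 10, total 15) kept 18049 genes holding at least 99.89% of each library; TMM factors and 1 quasi-likelihood model of 12 libraries followed (edgeR 4.0.16, limma 3.58.1, R 4.3.3; median biological coefficient of variation 0.214). The fit was tested on simulated data. TPM, coding sequences and overlaps use GENCODE release 29, and positions and promoters RefSeq (GRCh38.p14). The relation to the mitochondrial share used 1296 within-group permutations. All members were named; of other lists, up to 4 genes with the smallest adjusted p. The members and lists were chosen with earlier results of these data known. Pairs of replicates had chi-square values per gene between 16.4 and 240.9, far beyond counting noise. Alternatives were other scalings, filters, DESeq2 1.42.0, sample subsets, a block, a covariate and other lengths. The principal-transcript length, the search for TGACGTCA and the refits of the list counts were added after seeing the data.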

Additional observations from a re-analysis of the deposited data

How the results depend on the processing

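The 35 fold changes given for members were refitted 732 times in all, and 28 of them kept their direction throughout. For 5-Ph-IAA/ATRi against DMSO, 2 members passed in the report. The count was 4 with a filter of at least 1 CPM in 3 libraries and 4 with DESeq2 (TUBB2B and TUBB3 added). It was 5 with the mitochondrial share as a covariate and 1 in 8 libraries. Over all genes, 2370 of 18049 passed in the report and 2325 of 15015 with that filter. With the covariate 6449 of 18049 passed, in 8 libraries 1624 of 18026, and DESeq2 called 3111. The member count ran from 1 to 4 when 1 library at a time was left out: 1 without DMSO 1 or 5-Ph-IAA/ATRi 2, 4 without DMSO 3, and 3 without DMSO 2. Over all genes, 1236 of 18503 passed without DMSO 1 and 1363 of 18405 without 5-Ph-IAA/ATRi 2. Without DMSO 3 it was 1701 of 18363, and without DMSO 2 12.9%. Against 5-Ph-IAA the count of 1 became 2 with the covariate, 0 in 8 libraries, and from 0 to 1 with libraries left out. Over all genes, 1699 of 18049 passed there in the report, 5507 with the covariate and 805 of 18026 in 8 libraries. Where leaving out 1 library took the count to 0, from 777 of 18459 to 1236 of 18472 genes passed. Against ATRi the count of 0 became 1, TUBB2A, with the stricter filter, the covariate, only the compared groups, and DESeq2. Over all genes, 634 of 18049 passed there in the report and 695 of 15015 with the stricter filter. With the covariate 3188 of 18049 passed, with only the compared groups 970 of 17074, and DESeq2 called 1350. With the set number as a replicate block the counts were 4 against DMSO and 1 against ATRi, and the block changed no other count. The block also raised the calls over all 18049 genes tested. Against DMSO 4569 genes passed with it and 2370 without it, and against ATRi 1980 and 634. The numbers pair the samples only in part: 13 of 18 same-numbered pairs had a correlation over 0.1 (from -0.09 to 0.76), and the same number correlated best in 11 of 18.

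Signs turned for members near 0. Against DMSO the combination gave TUBA1C -0.0053 with total counts and -0.15 in 8 libraries, TUBB4B -0.11 in 8 libraries, and TUBG1 0.0032 with the stricter filter, 0.0174 with the block and 0.0320 with the covariate. With the covariate TUBB became 0.11 for 5-Ph-IAA and 0.14 for ATRi. With 1 library left out, TUBB ran from -0.51 to 0.46 for 5-Ph-IAA and from -0.49 to 0.39 for ATRi. For the combination TUBA1A ran from -0.0318 to 0.59, TUBA1C from -0.18 to 0.26, TUBB4B from -0.16 to 0.30 and TUBG1 from -0.16 to 0.16. The interaction of TUBB6 ran from -0.10 to 0.15. The causes were not tested. With 3 libraries a group, the 95% interval of TUBA1B for the combination against DMSO ran from -1.87 to 0.12.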
